A study of Mus musculus with 2 samples.

Results

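The Mir26 family comprised 3 of the 2202 mouse genes in the deposited miRNA tables: Mir26b, Mir26a-2 and Mir26a-1. They were taken by name, as the genes that lie in introns of the Ctdsp phosphatase genes Ctdsp1, Ctdsp2 and Ctdspl. The libraries came from myotubes of C2C12, an established mouse myoblast line first grown from C3H thigh muscle after injury, whose cells fuse into multinucleated myotubes once differentiation is induced. They had differentiated for 72 h and carried no listed allele or agent. Both libraries belong to a single group, biological replicates 1 and 2, prepared from separate biosamples of this line with 1 technical replicate each. No undifferentiated control was analysed here. Levels were therefore compared between miRNA genes and between the libraries, as counts-per-million (CPM): the reads on a gene's own strand out of all such reads over the miRNA genes.

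A miRNA gene is transcribed as a longer RNA whose hairpin is cut to a short duplex, and the arms of that duplex are named 5p and 3p after their place in the hairpin. The arm that is loaded into Argonaute pairs with messenger RNAs mainly through its seed, bases 2 to 8, and lowers their translation and stability. In mouse myoblasts, miR-26a is known to rise with differentiation and to repress Ezh2, a histone methyltransferase that keeps muscle genes silent in proliferating cells, and it has been reported to repress the signal transducer Smad1. The host genes encode small phosphatases that act on the C-terminal domain of RNA polymerase II and work with the repressor REST on neuronal genes. These are background facts. The libraries measured small RNAs only.

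The 5p arms were nearly the same in all 3 genes, and this bears on every count that follows. The RefSeq mature sequences (GRCm38.p6) are shown 5′ to 3′ with the seed in capitals, because they decide which genes a read can be told apart from.
miR-26b-5p (Mir26b): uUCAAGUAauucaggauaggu
miR-26a-5p (Mir26a-2 and Mir26a-1): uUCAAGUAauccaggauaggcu
miR-26b-3p (Mir26b): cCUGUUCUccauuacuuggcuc
miR-26a-2-3p (Mir26a-2): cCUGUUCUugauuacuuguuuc
miR-26a-1-3p (Mir26a-1): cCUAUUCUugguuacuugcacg

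MiR-26a-5p was listed for 2 genes, Mir26a-2 and Mir26a-1, with an identical sequence of 22 bases. MiR-26b-5p had 21 bases and differed from it at C11U and C21U (the base of miR-26a-5p, the position counted from 1 at the 5′ end, then the base of miR-26b-5p). The seed UCAAGUA was the same, and in the RefSeq table no mature mouse miRNA outside the family carried it. The 3p arms differed more. MiR-26a-1-3p and miR-26a-2-3p differed at 6 of 22 bases, A4G, G11A, C19U, A20U, C21U and G22C, and miR-26a-2-3p differed from miR-26b-3p at 4 bases. Because of A4G, miR-26a-2-3p and miR-26b-3p had the seed CUGUUCU in common, which miR-6932-3p and miR-7039-3p also carried, whereas the seed CUAUUCU of miR-26a-1-3p had no other bearer in the table.

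The hairpins showed the same pattern. They are printed with both mature arms in capitals, to set the stretch that the Mir26a genes share against the loop and flanks that differ.
Mir26b (chr1:74394310-74394394, plus strand): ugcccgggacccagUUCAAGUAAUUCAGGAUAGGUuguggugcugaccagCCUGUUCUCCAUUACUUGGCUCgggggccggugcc
Mir26a-2 (chr10:126995530-126995613, plus strand): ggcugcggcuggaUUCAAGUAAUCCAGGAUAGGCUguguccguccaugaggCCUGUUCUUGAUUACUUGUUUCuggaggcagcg
Mir26a-1 (chr9:119031796-119031885, plus strand): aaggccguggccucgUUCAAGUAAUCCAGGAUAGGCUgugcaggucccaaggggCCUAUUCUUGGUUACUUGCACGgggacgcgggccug

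The longest exact run in common between the Mir26a-2 and Mir26a-1 hairpins was 25 bases, uucaaguaauccaggauaggcugug, which covers the whole 5p arm and 3 bases past it. Mir26b shared at most 11 bases in a row with Mir26a-1 and 10 with Mir26a-2. Against 1002 hairpins outside the family, the longest exact run of Mir26b was 11 bases, that of Mir26a-2 was 11 and that of Mir26a-1 was 10. A read of miR-26a-5p therefore fits both Mir26a genes equally, and a read of miR-26b-5p or of any 3p arm matches a single gene exactly. The predicted minimum free energies were close, at -43.5 kcal/mol for Mir26b over 85 bases, -44.5 kcal/mol for Mir26a-2 over 84 bases and -49.4 kcal/mol for Mir26a-1 over 90 bases, with 77.6%, 76.2% and 75.6% of bases paired.

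**Figure D1:**
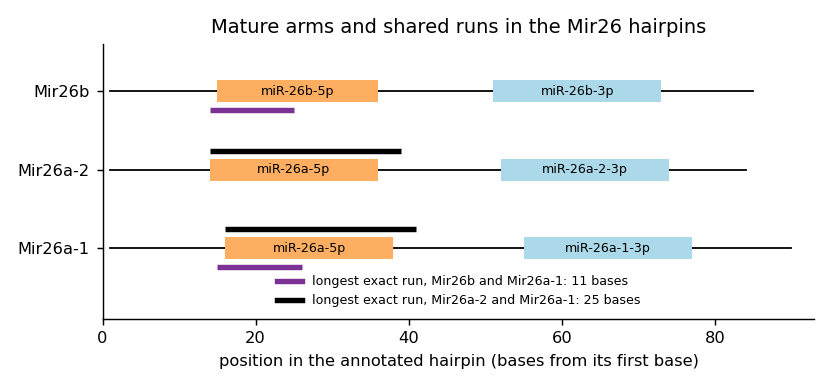
Positions of the mature arms (orange 5p, blue 3p) in the 3 annotated hairpins, in bases from the first base, with the longest exact runs that pairs of genes share drawn as bars. The black bar of 25 bases spans the whole miR-26a-5p arm in Mir26a-2 and Mir26a-1, while the purple bar that joins Mir26b to Mir26a-1 spans 11 bases.

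Each gene lay inside an intron of a paralogous host, on the host's own strand, and overlapped no exon of any annotated coding transcript of that host and no other gene (GENCODE M21, GRCm38). Mir26b (ENSMUSG00000065468.1) lay in intron 4 of a Ctdsp1 transcript with 7 exons. That intron was 564 bases long (chr1:74394076-74394639), and the hairpin sat 234 bases after the upstream exon and 245 bases before the downstream exon. Mir26a-2 (ENSMUSG00000065430.1) lay in intron 5 of a Ctdsp2 transcript with 8 exons, an intron of 1946 bases (chr10:126993909-126995854), 1621 bases after the upstream exon and 241 bases before the next. Mir26a-1 (ENSMUSG00000065513.1) lay in intron 5 of a Ctdspl transcript with 8 exons, an intron of 3283 bases (chr9:119030253-119033535), 1543 bases after the upstream exon and 1650 bases before the next. The hosts differed in size, with annotated lengths of 5777 bases for Ctdsp1, 21259 bases for Ctdsp2 and 117546 bases for Ctdspl. Ctdspl2, a further member of the phosphatase family, held none of these genes.

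**Figure D2:**
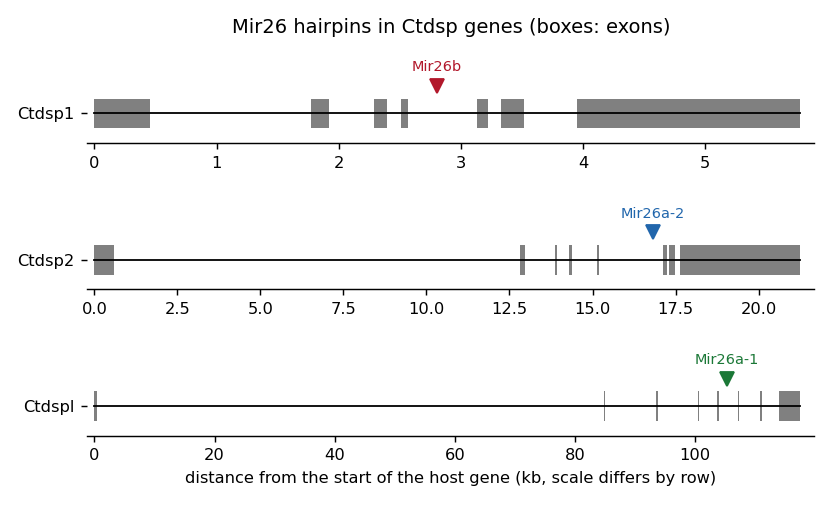
Exons (grey boxes) of the host transcripts and the place of each Mir26 hairpin (triangle), by distance in kb from the start of the host gene, with a separate scale for each row. Mir26b lies 2801 bases into Ctdsp1, Mir26a-2 lies 16813 bases into Ctdsp2 and Mir26a-1 lies 105343 bases into Ctdspl.

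Replicate 1 held 7581366 and replicate 2 held 9865298 sense-strand miRNA reads, which were 49.4% and 53.5% of all reads. Multimapping reads, kept in a line of their own and assigned to no gene, numbered 3378438 and 3295854. A count of 3 reads, the limit that a count of 0 allows, was 0.396 CPM in replicate 1 and 0.304 CPM in replicate 2. Of the 2202 genes, 274 were detected, meaning 2 CPM or more in both libraries. Of 9 myotube markers 6 were detected, led by Mir206, a skeletal muscle miRNA and the most abundant gene, at 340841 and 416794 CPM. The muscle genes Mir1a-2, Mir133a-1 and Mir133a-2 were not detected, with means of 3.02, 2.01 and 1.03 CPM, and Mir1a-1 was just past the limit at 2.94 CPM. Such counts hold only reads placed at 1 gene, since reads that mapped to more would be in the multimapping line. Whether the mature miRNAs of these genes were low was not tested. Among 12 markers of blood, endothelium, neurons, liver and epithelium, Mir142, Mir126a and Mir451a were detected and 4 had no placed read. Their sum was 0.0324% of replicate 1 and 0.0227% of replicate 2.

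Mir26b, from Ctdsp1, had the most placed reads of the family. It had 9081 reads in replicate 1 and 5764 reads in replicate 2, or 1198 CPM (95% exact Clopper-Pearson interval 1173 to 1223) and 584 CPM (569 to 599.5). Its mean was 891 ± 434 CPM (SD, n = 2), rank 68 of all genes, and both values were well above the median of detected genes, 88.8 CPM in replicate 1 and 86.9 CPM in replicate 2. These intervals, and those below, cover counting error of reads within a library only. For Mir26b the libraries stood further apart than that error.

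Mir26a-2, from Ctdsp2, had 560 reads in replicate 1 and 620 reads in replicate 2, or 73.9 CPM (67.9 to 80.2) and 62.8 CPM (58.0 to 68.0). Its mean was 68.4 ± 7.79 CPM (SD, n = 2), rank 148, somewhat below the median of detected genes in either library. It was the steadiest of the 3 genes between the libraries.

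Mir26a-1, from Ctdspl, had 14 reads in replicate 1 and 42 reads in replicate 2, or 1.85 CPM (1.01 to 3.10) and 4.26 CPM (3.07 to 5.75). Its mean was 3.05 ± 1.70 CPM (SD, n = 2), rank 269. Both values exceeded the level of 3 reads, but it missed 2 CPM in replicate 1 and so was not among the detected genes. The counts of both Mir26a genes are uncertain, since reads of miR-26a-5p that mapped to both places would be in the multimapping line. They measure what could be placed at 1 gene, not the level of mature miR-26a, and the tables do not say which arm a read came from.

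**Figure D3:**
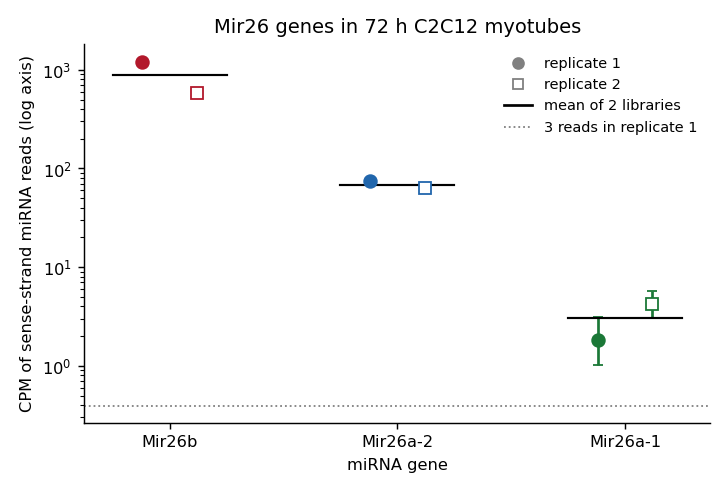
CPM of each Mir26 gene in replicate 1 (filled circles) and replicate 2 (open squares) on a log axis, with 95% exact Clopper-Pearson intervals for counting error, the mean of both libraries (line) and the level of 3 reads in replicate 1 (dotted). Mir26b stands at 1198 and 584 CPM, Mir26a-2 at 73.9 and 62.8 CPM and Mir26a-1 at 1.85 and 4.26 CPM, so the order is the same in both libraries.

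The order Mir26b, Mir26a-2, Mir26a-1 held in both libraries, with no overlap between genes: the lower Mir26b value, 584 CPM, exceeded the higher Mir26a-2 value, 73.9 CPM, and the lower Mir26a-2 value, 62.8 CPM, exceeded the higher Mir26a-1 value, 4.26 CPM. Ratios within a library, computed with 0.5 reads added to each count, do not depend on how the libraries are scaled. Mir26b exceeded Mir26a-2 by 16.2-fold in replicate 1 and 9.29-fold in replicate 2, and exceeded Mir26a-1 by 626-fold and 136-fold. Against the sum of the Mir26a genes the log2 ratio of Mir26b was 3.98 in replicate 1 and 3.12 in replicate 2, with a mean of 3.55 ± 0.61 (SD, n = 2). The log2 ratio of Mir26a-1 over Mir26a-2 was -5.27 in replicate 1 and -3.87 in replicate 2, with a mean of -4.57 ± 0.99 (SD, n = 2). These ratios are of placed reads, and none is a ratio of mature miR-26b to miR-26a. The smallest p of an exact paired permutation test with this many libraries is 0.5, and the ratios were not tested.

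The family together had 9655 reads in replicate 1 and 6426 reads in replicate 2, which were 0.127% (95% exact Clopper-Pearson interval 0.125% to 0.130%) and 0.0651% (0.0636% to 0.0667%) of miRNA reads. Mir26b gave 94.1% of the family's placed reads in replicate 1 and 89.7% in replicate 2. Reads of miR-26a-5p that mapped to both Mir26a genes would be missing from these figures. The percentages are therefore of placed reads, not of the mature miRNAs. None of the 3 genes had a read on the opposite strand in either library, and their counts were the same when strand was ignored. No gene overlaps them on the other strand.

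Genes next to each member in the order of mean CPM were looked up as those nearest in level, by the difference in log2 mean CPM over the 2 libraries. Next above Mir26b were Mir196b (995 ± 990 CPM, SD, n = 2) and Mir324 (897 ± 121 CPM), and next below were Mir542 (861 ± 72.7 CPM) and Mir674 (857 ± 273 CPM). All 4 were within 0.16 log2 units of Mir26b and none differed from it beyond its own spread of 434 CPM. They were picked by their place in that order, so this closeness follows from the choice and is no finding about likeness. Around Mir26a-2 stood Mir147 (76.3 ± 50.6 CPM), Mir421 (72.7 ± 35.2 CPM), Mir1981 (66.0 ± 6.63 CPM) and Mir199b (64.9 ± 30.3 CPM), and around Mir26a-1 stood Mir6903, Mir3081, Mir6546 and Mir702, between 3.14 and 3.04 CPM. The order of these neighbours was not resolved by 2 libraries. For scale, the biological coefficient of variation over the 274 detected genes, from edgeR's common dispersion, was 0.435.

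The members moved in different directions between the libraries. Mir26b was higher in replicate 1 by 2.01-fold, a log2 ratio of 1.01 (95% exact interval 0.96 to 1.05) after trimmed-mean (TMM) scaling. Mir26a-2 was 1.15-fold higher in replicate 1 (log2 ratio 0.20, 0.04 to 0.37), and Mir26a-1 was 2.30-fold higher in replicate 2 (log2 ratio -1.20, -2.22 to -0.33). All 3 members passed an exact two-sided binomial test with Benjamini-Hochberg adjustment over 415 genes. The adjusted p was 0.0300 for Mir26a-2 and 0.00897 for Mir26a-1 by that exact binomial test, and for Mir26b it was too small for the software to represent. Passing was common: 55.7% of the genes tested did, 30.4% higher in replicate 1 and 25.3% higher in replicate 2, so that the count of members past the test does not stand out. That share depends on the minimum count, as 205 of 240 genes passed with 100 reads or more and 221 of 708 with no minimum. The test compares these libraries, not conditions, and takes only the counting error of reads into account. The call for Mir26a-2 was lost with DESeq2 size factors (exact binomial test, adjusted p = 0.0655) and without a minimum count (adjusted p = 0.0511), and its adjusted p over all alternatives ran from 0.0115 to 0.0655.

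In size, the shift of Mir26b was matched or exceeded by 58 of the 274 detected genes (21.2%), and 21.5% of the detected genes differed 2-fold or more. The shift of Mir26a-2 was matched or exceeded by 78.8% of them and that of Mir26a-1 by 14.2%. The median absolute log2 ratio of detected genes was 0.52, above the value of Mir26a-2 and below those of Mir26b and Mir26a-1. For Mir26a-1 the ratio rests on 56 reads in all.

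**Figure D4:**
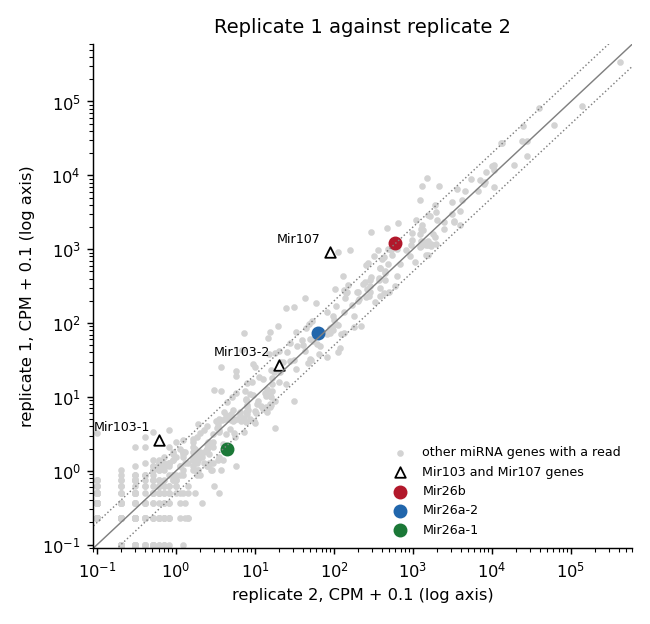
CPM of each miRNA gene in replicate 1 against replicate 2, both with 0.1 CPM added and on log axes, with lines of equality (solid) and of 2-fold difference (dotted). Mir26b lies near the upper 2-fold line, Mir26a-2 near equality and Mir26a-1 past the lower 2-fold line, while Mir107 lies above the upper 2-fold line, towards replicate 1.

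Some marker genes of other cell types also differed between the libraries. The endothelial miRNA Mir126a was at 217 CPM in replicate 1 and 42.9 CPM in replicate 2, and the red-cell miRNA Mir451a was at 11.9 and 3.65 CPM. The blood-cell miRNA Mir142 was at 89.0 and 178 CPM. Of 12 marker genes 6 were tested, of which 3 were higher in replicate 1 and 1 in replicate 2, beside the 30.4% and 25.3% over all genes tested. Their part in the shifts of the Mir26 genes was not tested.

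The nearest counterpart by gene structure was the Mir103 and Mir107 family, whose genes lie in intron 5 of the pantothenate kinase genes Pank3, Pank2 and Pank1, on the host's strand. There too the placed reads of the copies were few and those of the remaining gene were more. Mir103-1 and Mir103-2 each carried 1 arm that another gene also carries, as the Mir26a genes do. Reads of such an arm would be in the multimapping line, so the counts of the Mir103 genes are also uncertain. Mir107 had 911 CPM in replicate 1 and 88.8 CPM in replicate 2, Mir103-2 had 26.8 and 19.9 CPM, and Mir103-1 had 2.51 and 0.507 CPM. Mir107 exceeded the sum of the Mir103 genes by 4.96 log2 units in replicate 1 and 2.12 in replicate 2, with a mean of 3.54 ± 2.00 (SD, n = 2), beside 3.55 ± 0.61 for Mir26b over the sum of the Mir26a genes. The Mir107 hairpin shares 24 bases in a row with each Mir103 hairpin, whereas Mir26b shares at most 11 with a Mir26a hairpin. The Mir103 hairpins share 27 bases in a row with each other. No mature arm of Mir107 is listed for another gene, as for Mir26b, and how reads in its longer shared run were assigned was not tested. The difference between the families was not tested, since an exact paired permutation test over these libraries has the same smallest p, 0.5.

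Over 13 genes of further families in introns of paralogous coding genes, the Pank genes included, 11 were detected. Mir499, in the myosin gene Myh7b, was at 471 ± 131 CPM and Mir208b, in Myh7, was at 378 ± 166 CPM (SD, n = 2). Mir128-1, in R3hdm1, was at 101 ± 6.84 CPM and Mir128-2, in Arpp21, was at 56.6 ± 6.87 CPM. Mir218-1 and Mir218-2, in introns of Slit2 and Slit3, were at 6.76 and 0.431 CPM on average. Mir199b, opposite Dnm1, was at 64.9 CPM, Mir199a-2, opposite Dnm3, at 26.04 CPM and Mir199a-1, opposite Dnm2, at 11.2 CPM on average. Of the 13 genes, 12 were tested between the libraries, and 6 were higher in replicate 1 and 6 in replicate 2. The background was 55.7% of all genes tested, and 205 of 240 genes with 100 reads or more in total. In placed reads, Mir26b was above each of the 13 in both libraries. The Mir103, Mir128 and Mir218 genes among them each carried 1 arm that another gene also carries. The Mir199 genes shared every listed arm, while Mir107, Mir208a, Mir208b and Mir499, like Mir26b, shared none. Reads of shared arms would be in the multimapping line, so this order need not be that of the mature miRNAs. By mean level Mir26a-2 stood between Mir128-1 and Mir199b, but in replicate 1 Mir199b was higher, at 86.4 CPM.

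The setting of the Mir26a genes was also described over all genes with a RefSeq mature sequence, 1018 of the 2202. Of these, 57 genes carried 1 arm that another gene also carries, as Mir26a-2 and Mir26a-1 do. In that class 37 genes were detected, and their median was 41.7 CPM for replicate 1 and 31.4 CPM for replicate 2, while 8 lacked any read. Mir26a-2 was above that median, with 16 of the 37 detected genes above it, and Mir26a-1 was below the detection limit. Among 924 genes with no listed arm in common with another gene, to which Mir26b belongs, 204 were detected. Their median was 166 CPM for replicate 1 and 128 CPM for replicate 2, and 58 of them had a higher mean than Mir26b. Of 37 genes whose listed arms were all carried elsewhere, 4 were detected. Bearers of an arm were counted within that table alone, by exact sequence. A gene could therefore fall in the class with no shared arm because an arm was not listed there. Other differences between the classes were not looked at, and the values describe the setting of the members only.

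**Figure D5:**
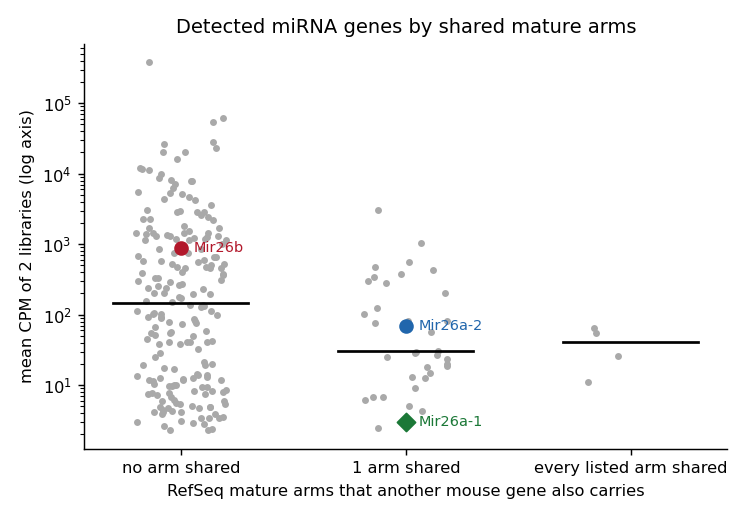
Mean CPM of both libraries on a log axis for each detected miRNA gene, by whether its RefSeq mature arms are also carried by another mouse gene, with the median of each class (line). Mir26b, at 891 CPM, is in the class with no shared arm. Mir26a-2, at 68.4 CPM, and Mir26a-1, at 3.05 CPM (diamond, not detected in both libraries), are in the class with 1 shared arm.

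Other miRNAs reported to target Ezh2 were set beside the family. Of 9 listed genes, 5 were detected and 4 had no placed read, namely Mir101c and the neuronal Mir124a-1, Mir124a-2 and Mir124a-3. Mir214, a miRNA reported to repress Ezh2 in muscle cells, was at 2844 ± 685 CPM and Mir101b at 360 ± 94.9 CPM (SD, n = 2). Mir101a was at 103 ± 43.0 CPM, Mir138-1 at 30.9 ± 15.3 CPM and Mir138-2 at 29.3 ± 1.86 CPM. In placed reads, Mir26b thus lay below Mir214 and above Mir101b in mean level, and in both libraries. Mir138-1 and Mir138-2 each carried 1 arm that another gene also carries, so their counts are uncertain. Reads that mapped to more than 1 gene would also be missing from genes with no placed read. This order need not be that of the mature miRNAs, and mature miR-26a could not be placed in it. Of the 5 genes tested between the libraries, 2 were higher in replicate 1 and 2 in replicate 2. The background was 55.7% of all genes tested, and 205 of 240 genes with 100 reads or more in total. The median log2 ratio of the 5 genes was 0.10, beside 0.02 over all genes tested. Ezh2 itself was not measured.

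The family's seed match was looked up in the 3′ untranslated regions (UTRs) of the known targets Ezh2 and Smad1 and of the host family, in the longest UTR among the principal transcripts of each gene in GENCODE M21. The match was TACTTGA on the transcript's strand, the complement of bases 2 to 8 of miR-26a-5p and miR-26b-5p, and 9.10% of 20788 coding genes held it somewhere in that UTR. The windows around the matches in Ezh2, Smad1 and Ctdsp2 are shown, with the match in capitals, because these genes are the reported targets and the only host of a family member with a match.
Ezh2 (chr6:47530284-47530308, minus strand): aatttgaataaagaaTACTTGAact
Smad1 (chr8:79339594-79339618, minus strand): atcgagccttgcatgTACTTGAagg
Smad1 (chr8:79339537-79339561, minus strand): aaggagccacgataaTACTTGAcct
Ctdsp2 (chr10:126997551-126997575, plus strand): cccaagtgttgctctTACTTGAttt

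Ezh2 had 1 match in a UTR of 402 bases, and 2.83% of UTRs at least that long held the match within their first 402 bases. Smad1 had 2 matches in 1254 bases, where 8.87% of UTRs held at least 1 over the same length. Ctdsp2, the host of Mir26a-2, had 1 match in 3483 bases, beside 24.96% of UTRs over that length. Ctdsp1 and Ctdspl had none in 1701 and 3349 bases, and Ctdspl2 had 1 in 3014 bases. A match is a description of letters, and no target was measured in these libraries.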

How the data were processed

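Small RNA of 2 C2C12 myotube libraries was analysed as 1 group. The authors deposited raw counts of reads for each miRNA gene, on mm10 with the M21 annotation, according to their deposited notes. Which aligner, counter, trimming and filters were used is not given in the sources used here. The 3 count columns of a table ignore strand, follow the gene's strand or take the opposite one, and 4 further lines hold unassigned reads. Own-strand counts were used, a choice read from the values. The unassigned reads, none of them ambiguous on the own strand, were left out of library sizes: in replicates 1 and 2, multimapping reads were 22.0% and 17.9%, unmapped reads 22.7% and 23.1% and no-feature reads 5.88% and 5.57% of 15349205 and 18450359 reads. Nothing marks the reads as unique molecules.

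All 2202 identifiers matched GENCODE M21 (GRCm38, the same assembly as mm10). Some carry names of other small RNAs, such as Snord43, at 208 CPM on average. They were kept in totals, counts and ranks as miRNA genes, and gene type was not checked. Sequences came from RefSeq (GRCm38.p6), with mature arms for 1018 genes, and folding from RNAfold 2.7.2. Levels are CPM of own-strand gene reads. For each gene the libraries were compared by a two-sided exact binomial test, with effective sizes by TMM (edgeR 4.0.16, R 4.3.3), on genes with 10 or more reads in total, with Benjamini-Hochberg adjustment over all of them and a threshold of 0.05. Quasi-likelihood testing was not used, as there is no condition to contrast. Python 3.11.15 with scipy 1.17.1 was used. The test was also run on simulated counts. These held counting error only and no spread between replicates, so that run does not bear on such spread. Alternatives were the strand-ignored counts, all reads or no Mir206 in the denominator, each library left out, other pseudocounts, other minimum counts and detection limits, DESeq2 1.42.0 size factors and library totals. The members and lists were chosen with earlier results of these data known, and the seed-match search was added later. Named genes were the members, their 2 neighbours on each side in mean CPM, the Pank-hosted genes, the 2 most abundant genes of other lists and Mir206. Further list members and markers were named after their values were seen.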

Additional observations from a re-analysis of the deposited data

Results flagged for a closer look

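Reads that were assigned to no gene were far more than 3, the most that an absent signal allows. The multimapping line held 3378438 reads for replicate 1 and 3295854 for replicate 2, beside 574 and 662 reads placed at the Mir26a genes. Reads mapped outside miRNA genes numbered 903243 in replicate 1 and 1027420 in replicate 2. How many of the multimapping reads were miR-26a-5p was not tested, since the tables give only their sum. The series has 1 group of 2 libraries, so neither an outlying library nor a group difference was sought.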

How the results depend on the processing

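Of 52 alternative values, 45 were counted as kept and none reversed. Kept meant the same direction and side of the threshold, or a move by less than the replicate spread. Values with a library left out had to be kept, because each of 2 libraries lies within that spread of their mean. Ratios within a library could not change with strand ignored, as the members had no opposite-strand read. Gene counts and the biological coefficient of variation have no replicate spread but were also counted as kept. The call for Mir26a-2 between the libraries was lost with DESeq2 size factors (log2 ratio 0.18) and without a minimum count (log2 ratio 0.20). With all reads as the denominator, Mir26b was at 452 CPM, Mir26a-2 at 35.0 CPM and the family at 0.0489%. With strand ignored Mir26a-2 was at 77.9 CPM, from a smaller total and the same count. Without Mir206 in the denominator the family was at 0.152%. With each library left out in turn, Mir26b ran from 584 to 1198 CPM, Mir26a-2 from 62.8 to 73.9 CPM, Mir26a-1 from 1.85 to 4.26 CPM and the family from 0.0651% to 0.127%. The log2 ratio of Mir26b over the Mir26a genes then ran from 3.12 to 3.98 and that of Mir26a-1 over Mir26a-2 from -5.27 to -3.87. With DESeq2 size factors the log2 ratio of Mir26b between the libraries was 0.98, under 2-fold. Mir26a-1 was not tested with a minimum of 100 reads. No paired analysis was possible across groups because the series has 1 group, and replicate numbers pair no samples; the ratios above pair genes within a library. The comparison between the libraries could not be repeated without a library.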
